A study of Saccharomyces cerevisiae with 5 samples.

Results

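How far replication forks travel, how far apart they start and what they copy on the way were compared between galactose and glucose in 1 strain of budding yeast, Saccharomyces cerevisiae. The comparison takes 3 of the 5 samples in the series: galactose E and galactose G (n = 2) and glucose F (n = 1). All 3 are strain yIW160-SSDDCS, in which galactose induces 6 initiation factors: Cdc45, Dbf4, Dpb11, Sld2, Sld3 and Sld7. The cultures were asynchronous, grew at 30 degrees, and spent 4 hours in 2% of either sugar before doxycycline was added at 40 micrograms per ml for 2.5 hours. Wild type A and B (strain yIW160, n = 2, same temperature and doxycycline, medium not among their labels) appear below as a further reference. They also enter the permutation tests against the other 3 samples, the list of joined sites and the spread that limma uses. The 3 yIW160-SSDDCS samples were read by Ion Torrent and wild type by Illumina, so platform and strain cannot be told apart, and neither can galactose medium and overexpression of the factors. The promoter that drives the factors is not given in the sources used here. Nothing says that E and G were separate cultures, so p-values measure only the spread between these samples, which may be technical.

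Each chromosome is copied by pairs of forks that leave an initiation site, an origin, in opposite directions and end where they meet a fork from a neighbouring site or reach the end of the chromosome. An origin that does not fire in a given cell is copied passively, by a fork that started elsewhere. The factors act in the firing step: Sld3 and Sld7 bring Cdc45 to the loaded helicase, Dpb11 and Sld2 help complete the active helicase, and Dbf4 is the regulatory subunit of the Cdc7 kinase that starts the process. The lagging strand is made in short pieces, the Okazaki fragments, which carry the direction of the fork that made them. Doxycycline is used in this assay to shut off the DNA ligase that would join them.

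The deposited model of each sample is a set of straight fork segments, each with its positions, its times and its probability, the share of genome copies in which it is used. The fits held 3345 and 3189 segments in galactose E and G, against 4545 in glucose F, while wild type A and B had 6353 and 6039. Read depth is unknown. All segments run at 2900 bases per minute, a speed set by the fit and not measured, so distances and not speeds are described here. Segments were chained into whole forks, from initiation to end, which gave 632 and 680 forks in galactose, compared with 572 in glucose and 598 and 632 in wild type. Forks at the edges of an uncovered stretch of chromosome XII and a few others start at no known initiation. They copied 0.338% to 0.418% of the genome and were left out.

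Forks travelled shorter distances in galactose. From initiation to end, the mean fork ran 23.9 kb in galactose E, 21.9 kb in G and 32.4 kb in glucose F, and it ran 35.1 kb and 32.0 kb in wild type A and B. The galactose mean was 22.9 ± 1.40 kb (SD, n = 2), and the glucose run was 1.42 times as long. Both galactose samples lay below the other 3, and glucose lay between the wild-type samples. The median fork ran 20.5 kb and 18.8 kb in galactose, 26.8 kb in glucose, and 27.9 kb and 25.6 kb in wild type. Every base is copied by 1 fork in each genome copy, so the mean run is nearly fixed by the number of initiations and is not evidence separate from it. The shape of the distribution is not fixed in this way. Without segments of probability under 0.05 the galactose mean was 22.6 kb and the glucose mean 31.6 kb.

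Long runs differed more than short ones. The 10th percentile of run length was 10.6 kb and 9.59 kb in galactose and 10.6 kb in glucose, which is no separation. The 75th percentile was 29.4 kb and 27.0 kb in galactose against 42.6 kb, and the 90th was 40.9 kb and 36.4 kb against 61.8 kb. The ratio of glucose to galactose therefore went from 1.05 at the 10th percentile to 1.36 at the median and 1.60 at the 90th. Relative to its own median, the 90th percentile stood at 1.99 and 1.94 in galactose, 2.31 in glucose, and 2.42 in both wild-type samples. The SD of run length over its mean was 0.580 and 0.579 in galactose, against 0.702 in glucose and 0.725 and 0.721 in wild type. Forks that ran at least 2 times their own sample's mean made up 5.83% and 6.00% in galactose, compared with 8.27% in glucose and 8.75% and 8.62% in wild type. By these 3 measures of shape the replicates lay close together, and glucose lay between galactose and wild type, nearer to wild type.

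**Figure D1:**
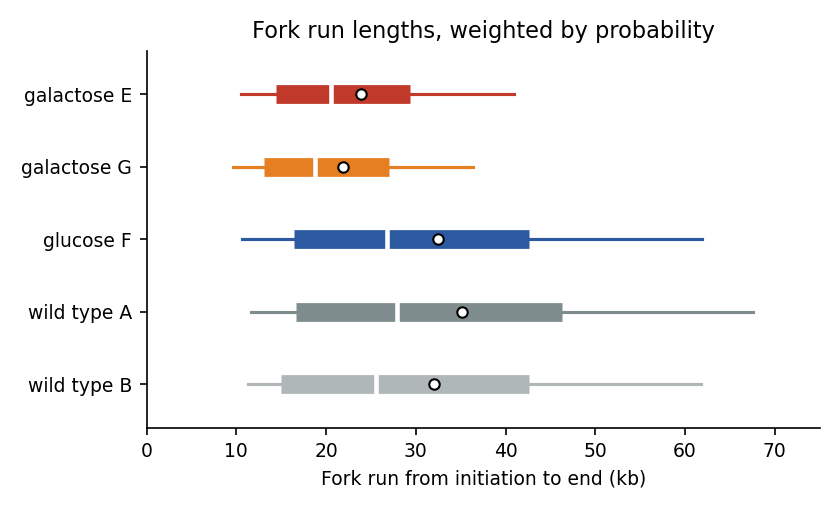
Fork run length in kb (x axis) in each of the 5 samples, weighted by fork probability. Thin lines span the 10th to the 90th percentile, bars the 25th to the 75th, white ticks mark medians and circles means. The galactose bars end at 29.4 and 27.0 kb, while the left ends of the thin lines lie between 9.59 and 11.6 kb in all 5.

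Runs of 50 kb or more were rare in galactose. Such forks made up 4.81% and 3.70% in galactose, against 17.4% in glucose and 21.5% and 17.5% in wild type. At 100 kb or more the shares were 0.162% and 0.080% in galactose, compared with 1.40% in glucose and 2.66% and 1.73% in wild type. The glucose share was 4.09 times the galactose mean at 50 kb and 11.5 times at 100 kb. Such ratios at a fixed distance also grow when every run is shorter by the same factor. The measures relative to each sample's own mean or median, given above, are free of this. Forks that ran off a chromosome end made up a smaller share, 6.42% and 5.88% in galactose against 8.75% in glucose. The number of ends is the same in every sample, so this share moves with the number of forks.

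Of 56 measures per sample, 50 reached the smallest exact permutation p that 2 samples against 1 allow, 0.333 (two-sided), so none of them can pass a threshold of 0.05. Against the other 3 samples together, 40 reached 0.1, the smallest possible there. The lowest adjusted values were 0.373 and 0.14, over the 56 measures. Mean and median run, the 3 measures of shape and the shares of long runs are among the 40. Most of the 56 come from the same forks and are not independent of one another.

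The share of the genome copied by long-travelling forks showed the same gap. Averaged over all bases, the fork that copied a base had already travelled 15.9 kb in galactose E, 14.6 kb in G and 24.2 kb in glucose, and 26.8 kb and 24.3 kb in wild type. Forks that had travelled at least 30 kb copied 13.0% and 10.5% of the genome in galactose (mean 11.7% ± 1.81, SD, n = 2), 29.0% in glucose, and 33.0% and 28.9% in wild type. The gap in ratio grew with distance. Past 10 kb the shares were 58.8% and 55.2% in galactose against 69.8% in glucose. Past 50 kb they were 3.04% and 2.33% against 11.5%, and past 100 kb they were 0.154% and 0.057% against 1.31%. The ratio of glucose to the galactose mean was 1.22, 4.29 and 12.5 at these 3 distances. These ratios too grow with distance when all runs are shorter by the same factor. The mean run in glucose was 1.42 times that in galactose. With distance scaled by about that much, galactose past 70 kb stood at 0.796% and 0.556%, beside the 1.31% of glucose past 100 kb.

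**Figure D2:**
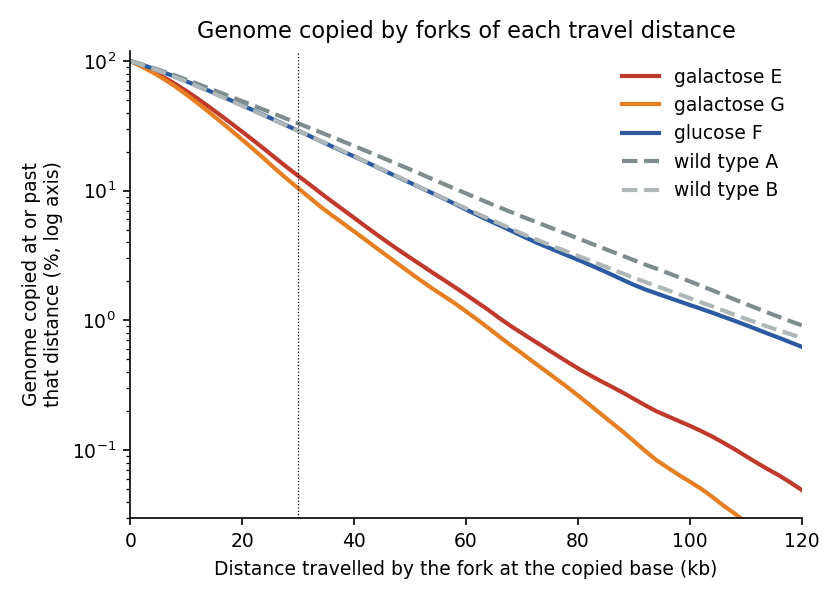
Share of the genome (y axis, %, log scale) copied by forks that had already travelled at least the distance on the x axis (kb), for the 5 samples, with a dotted line at 30 kb. The galactose lines leave the others from about 10 kb and cross 30 kb at 13.0% and 10.5%, while glucose crosses at 29.0% and runs along wild type B.

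Forks can travel far because no site lies ahead of them or because they copy sites that did not fire. Both kinds of long travel were lower in galactose. Sequence copied past 30 kb by forks that had not yet passed a site was 7.25% and 5.62% of the genome in galactose, against 15.0% in glucose and 14.8% and 11.6% in wild type. Sequence copied past 30 kb by forks that had passed at least 1 site was 5.77% and 4.84% in galactose, compared with 14.0% in glucose and 18.3% and 17.3% in wild type. The glucose value was 2.33 times the galactose mean for the first kind and 2.64 times for the second. A site here is where 2 forks leave in opposite directions from the same base and time, in a share of copies of 0.1 or more.

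Forks passed fewer of the sample's own sites in galactose. The mean fork passed 0.128 sites in galactose E, 0.118 in G, 0.253 in glucose, and 0.330 and 0.328 in wild type. Those that ended without passing any made up 88.3% and 89.5% in galactose, 79.3% in glucose, and 74.0% in each wild-type sample. Forks passing 2 sites made up 0.963% and 1.11% in galactose against 3.05% in glucose, and those passing 3 or more made up 0.073% and 0.103% against 0.667%. Glucose lay between galactose and wild type on each of these shares. A fork that passes a site copies it passively. The mean number passed is therefore tied to the passive share of own sites given below and is not separate from it.

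**Figure D3:**
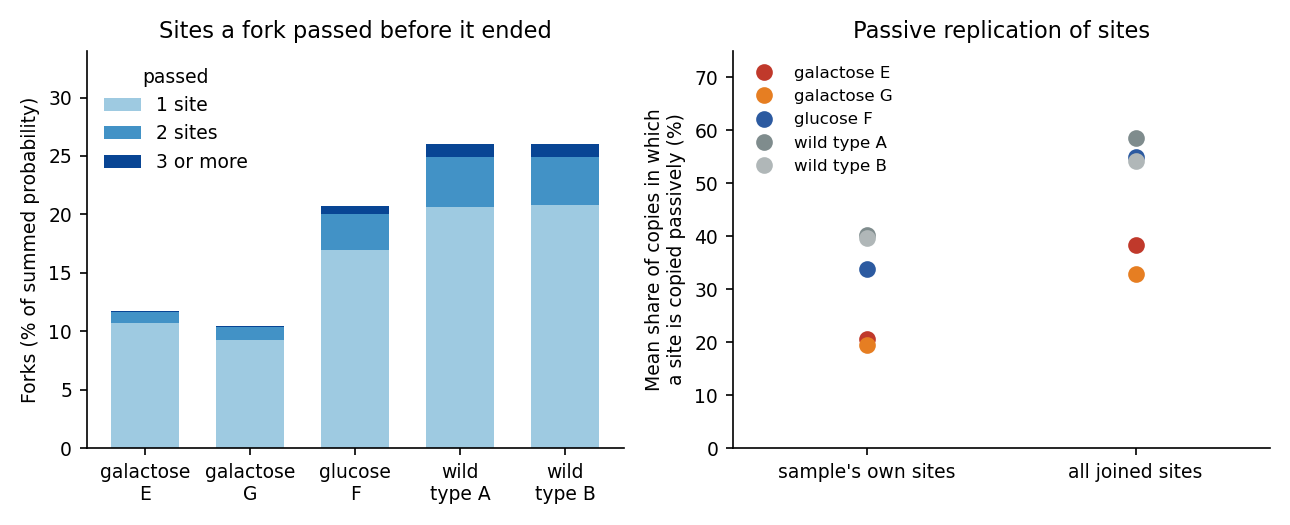
Left, share of forks (y axis, % of summed probability) that passed 1, 2 or at least 3 of the sample's own sites, stacked, for each sample. Right, mean share of copies (y axis, %) in which a site was copied passively, over the sample's own sites and over all 407 joined sites. Galactose is lowest in both panels, with E at 20.7% and 38.4% and G at 19.4% and 32.9% in the right panel.

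Sites lay somewhat closer together in galactose, and the gap widened when weak sites were set aside. Galactose E and G had 316 and 339 sites, glucose 277, and wild type 282 and 309. The median distance between adjacent sites was 34.3 kb and 31.8 kb in galactose (mean 33.0 ± 1.72 kb, SD, n = 2) and 37.6 kb in glucose. In wild type it was 38.9 kb and 34.3 kb, so galactose E and wild type B did not differ at this precision. Between sites used in at least 0.3 of copies the medians were 35.0 kb and 33.3 kb in galactose, 43.6 kb in glucose, and 43.1 kb and 40.6 kb in wild type. Between sites used in at least 0.5 they were 37.4 kb and 35.4 kb, 49.7 kb, and 53.0 kb and 51.4 kb. Raising the cut from 0.1 to 0.5 thus moved the galactose medians little and those of the other samples by more than 10 kb. Per initiation in 1 genome copy, which weights each site by its use, 47.7 kb and 43.8 kb were copied in galactose, 65.1 kb in glucose, and 70.7 kb and 64.2 kb in the wild-type samples. By exact permutation, p against the other 3 came to 0.2 for the median spacing of all sites and 0.1, the smallest possible, for the 3 other measures. Since 2 forks leave each initiation, kb per initiation is nearly the mean run again. It is no distance between sites and no separate evidence on spacing.

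**Figure D4:**
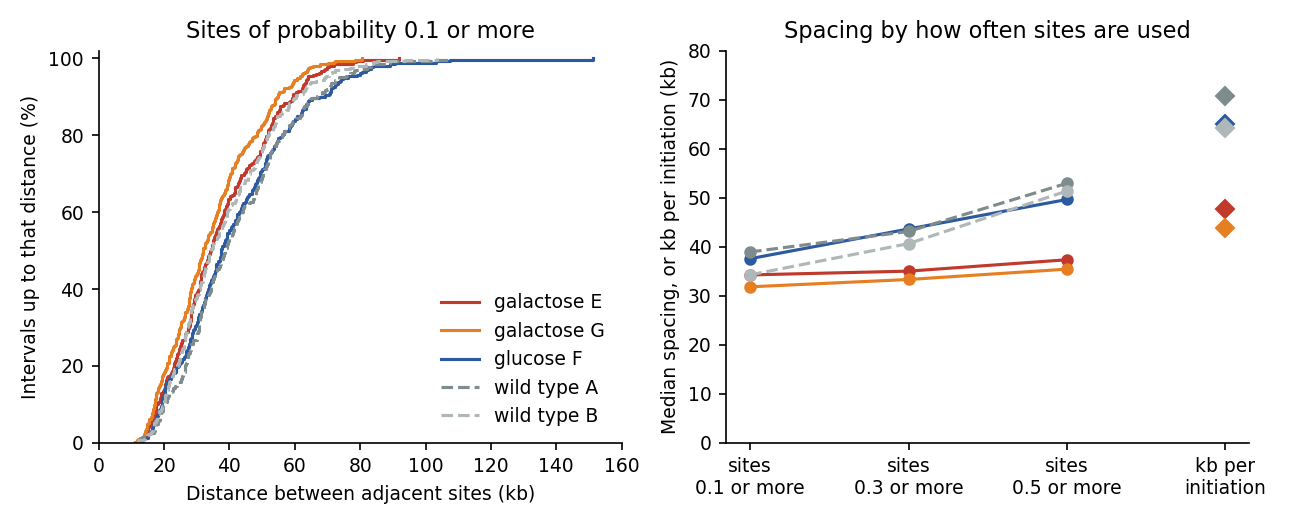
Left, share of intervals (y axis, %) up to a given distance between adjacent sites (x axis, kb) for sites of probability 0.1 or more in each sample. Right, median spacing in kb at 3 minimum probabilities (circles) and kb per initiation (diamonds), in the same colours. The galactose medians stay between 31.8 and 37.4 kb, while glucose goes from 37.6 to 49.7 kb.

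The widest gap between sites was in glucose, at 151 kb, against 91.9 kb and 80.7 kb in galactose and 107 kb and 104 kb in wild type. Intervals over 75 kb numbered 4 and 2 in galactose, against 13 in glucose and 13 and 8 in wild type. Intervals over 50 kb did not separate the groups, with 71 and 57 in galactose, compared with 75 in glucose and 82 and 69 in wild type.

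The 5 longest glucose intervals lay on chromosomes IV, VII and XIV, in the coordinates of the deposited files, whose genome build is not given in the sources used here. Both galactose samples had at least 1 site inside each of them. Since the intervals were chosen for holding no glucose site, that glucose has none is no finding. The longest ran from 508991 to 660269 on chromosome VII. There galactose E had a site at 568234 and G at 568518, of probability 0.799 and 0.805, and wild type A and B had one at 571651 and 571681 of 0.607 and 0.656. The forks that copied this interval had travelled 27.5 kb and 25.8 kb in galactose, 42.9 kb in glucose, and 30.4 kb and 28.0 kb in wild type. Galactose and wild type were alike here, and glucose stood apart from both.

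On chromosome IV, the interval from 1058536 to 1165923 held a galactose site at 1109778 in E (0.740) and 1109733 in G (0.795). Mean travel was 21.3 kb and 20.2 kb in galactose, 41.6 kb in glucose, and 45.3 kb and 33.3 kb in wild type. Wild type B had a weaker site there (0.356, at 1105768) and wild type A none. On chromosome VII from 888664 to 977780, E and G had 1 site each, of probability 1 and 0.915, and travel was 15.8 kb and 14.5 kb against 33.2 kb in glucose and 37.1 kb and 32.1 kb in wild type. On chromosome XIV from 321941 to 412458 the galactose sites stood at 0.732 and 0.640, and travel was 15.2 kb and 16.5 kb against 28.9 kb in glucose. Wild type had a site of 0.196 and 0.170 there, with travel of 29.9 kb and 25.3 kb. In these 3 intervals wild type lay nearer to glucose than to galactose.

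The remaining one, on chromosome IV from 913749 to 1016822, differed least. Galactose sites inside it summed to a probability of 0.454 in E and 1.25 in G. The sum in G includes a site at 921956 of 0.736. At the left edge, 913749, E had a site of 0.662 and G had none within 2500 bp. Mean travel was 29.6 kb and 26.4 kb in galactose, 32.4 kb in glucose, and 39.3 kb and 34.4 kb in wild type.

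How often galactose placed a site inside a glucose interval went with the length of the interval. Both galactose samples had one inside 1 of 54 intervals under 25 kb, 21 of 131 from 25 to 50 kb, 19 of 62 from 50 to 75 kb and 10 of 13 over 75 kb. Longer intervals offer more room, and per Mb of interval the counts were 0.964, 4.37, 5.08 and 8.41. These count each interval at most 1 time and use its full length. Sites within 2500 bp of either end were not counted, which costs short intervals more, so the effect of room is not fully removed. Both wild-type samples had a site inside 1 of 54, 7 of 131, 8 of 62 and 4 of 13 intervals of the same classes. The rise with length is therefore not particular to galactose. Glucose has none by construction. In intervals under 25 kb, forks that had travelled past 30 kb copied 3.80% and 2.39% in galactose and 16.4% in glucose. In those over 75 kb they copied 24.3% and 20.2% in galactose and 48.5% in glucose.

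Shorter travel was not limited to intervals with a galactose site inside. A galactose site counted as inside when more than 2500 bp from both flanking glucose sites, so a displaced flanking site also counted. Its glucose position then scored 0 as a flank in galactose, which lowers the flank mean. In 189 intervals with no galactose site inside, 62.7% of the summed length, mean travel was 14.5 kb and 13.5 kb in galactose and 19.6 kb in glucose. The sites flanking these intervals had a mean probability of 0.765 and 0.813 in galactose and 0.655 in glucose. In the 51 intervals where both galactose samples had a site inside, 27.9% of the length, travel was 16.2 kb and 14.3 kb in galactose and 27.7 kb in glucose. There the flanking sites stood at 0.648 and 0.660 in galactose and 0.698 in glucose. Of the whole difference in sequence copied past 30 kb within these intervals, 46.6% lay in the first class, 44.2% in the second, and 9.19% in 20 intervals where 1 galactose sample had a site inside.

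The passive share of sites was lower in galactose. Sites of the 5 samples within 2500 bp were joined into 407, and the passive share of a site is the share of copies in which it did not fire, 100% where a sample has no site. Its mean over the 407 was 38.4% in galactose E, 32.9% in G, 54.9% in glucose, and 58.5% and 54.2% in wild type. Over each sample's own sites, which takes out the unlisted ones, it was 20.7% and 19.4% in galactose, against 33.8% in glucose and 40.2% and 39.7% in wild type. Sites that were passive at least 50% of the time were 127 and 110 in galactose, compared with 203 in glucose and 218 and 203 in wild type. At the other end, 94 and 139 sites in galactose were passive in under 5% of copies, against 32 in glucose and 8 and 25 in wild type. The forks that did arrive at a site had travelled a mean of 26.8 kb and 24.7 kb in galactose, 37.3 kb in glucose, and 39.7 kb and 37.7 kb in wild type.

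At 58 places both galactose samples had a site and glucose had none within the join distance. Each therefore counts as 100% passive in glucose by definition. A glucose site can still lie just beyond that distance, as at VIII 168762, where one of probability 0.530 stood 2.78 kb away. Glucose forks arrived at 57 of the 58 places with a measurable path, having travelled a median of 31.3 kb (8.05 to 59.4 kb). At 31 of the 57 they had travelled past 30 kb. The reverse group, listed in glucose and in neither galactose sample, held 19 sites. Galactose forks reached these after 2.86 to 34.8 kb in E and 2.88 to 32.2 kb in G (median 15.3 kb), and past 30 kb at 1 of the 19 in each. Here too a site can lie just beyond the join distance. At VIII 171539 a galactose site of probability 1 stood 2.86 kb away in E and 2.95 kb away in G. Such shifted sites shorten the travel in this group, so its median is not that of unused origins alone. At the 250 sites listed in E, G and F, the mean passive share was 16.5% and 12.9% in galactose and 31.8% in glucose. The median travel of forks arriving there was 31.8 kb and 30.7 kb in galactose and 41.3 kb in glucose.

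Site by site, limma called 103 of 407 sites lower in passive share in galactose than in glucose (25.3%) and 20 higher (4.91%), for 30.2% in all, at an adjusted p under 0.05. An unadjusted p under 0.05 was reached by 163. The lower sites lay on all 16 chromosomes, and their mean passive share was 19.1% and 16.3% in galactose, against 75.6% in glucose and 70.1% and 69.2% in wild type. Of these 103, 49 were not listed in glucose and 54 were listed in both groups. Glucose forks arrived at them after a median of 35.8 kb (8.05 to 108 kb). The 20 higher sites had a mean passive share of 93.8% and 93.9% in galactose, compared with 49.1% in glucose and 78.4% and 77.9% in wild type, and 18 of them were listed in neither galactose sample. Passive share is 1 minus the use of the site, so these calls restate a difference in use. Without wild type A or B limma called 64 sites lower and 21 higher, and 61 of these 85 were among the 123 called above. Without galactose E it called 87 and 22, with 73 of the 109 among the 123, and without G 77 and 22, with 72 of the 99. The higher calls also moved with the distance within which sites were joined, to 32 at 1000 bp and 13 at 5000 bp.

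Among the 10 largest falls, the site on chromosome II at 93764 was passive in 0% of copies in both galactose samples, 100% in glucose, and 88.1% and 87.7% in wild type (adjusted p = 0.00314 by limma). In glucose 81.7% of the forks that copied it came from the left, after a mean of 39.0 kb, and the nearest glucose site lay 30.5 kb away. The site on chromosome X at 654490 was passive in 0% in both galactose samples and 100% in the other 3 (adjusted p = 0.00314), with glucose forks arriving after 32.5 kb. On chromosome VIII at 212336 the values were 4.13% and 0% in galactose and 100% in the other 3 (adjusted p = 0.00322), with arrival after 40.4 kb. None of the 10 was listed in glucose, so their 100% in glucose is set by definition. The same holds for wild type at X 654490 and VIII 212336. Their p-values are therefore not separate support for the difference. At X 654490 the values were identical within each group, so its p rests on the spread that limma pools over sites. With either galactose sample left out, galactose minus glucose was -100 percentage points at II 93764 and X 654490. At VIII 212336 it was -100 without E and -95.9 without G. Leaving out wild type does not change these differences.

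The longest arrival among the 10 was at chromosome XIV 28457, 57.3 kb from the right, with a passive share of 7.44% and 0% in galactose, against 100% in glucose and 70.2% and 80.4% in wild type. This site, with an adjusted p of 0.00956 by limma, lost its call without either galactose sample (0.0675 and 0.0817) and without either wild-type sample (0.0607). Chromosome XII at 51893, passive in 7.75% and 0% against 100%, did the same (0.0639, 0.0762 and 0.0630, from 0.00935). Chromosome VII at 917204, at 0% and 7.25% against 100%, lost its call without either wild-type sample (0.0599, from 0.00510). Chromosome XV at 308985 and chromosome I at 124486, both at 0% to 1.59% in galactose and 100% in glucose, lost theirs without either galactose sample (limma adjusted p from 0.0591 to 0.0738). The site on chromosome I had a glucose site of probability 0.276 at a distance of 4.57 kb, and glucose forks reached it after 31.2 kb. At the other 2, on chromosome VIII at 168762 and chromosome XVI at 117154, glucose had another site 2.78 kb and 5.01 kb away, of probability 0.530 and 0.760. Glucose forks reached them after 19.9 kb and 12.4 kb. These neighbours, VIII 171539 and XVI 122161, are themselves among the 10 largest rises.

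Of the 10 largest rises, 9 passed the test. Chromosome XV at 490333 was passive in 100% of copies in both galactose samples, 7.54% in glucose, and 26.9% and 33.9% in wild type (adjusted p = 0.00512 by limma). Galactose forks reached it after 14.3 kb and 14.4 kb, and a galactose site of probability 0.606 in E and 0.592 in G lay 6.59 kb and 6.41 kb away. Chromosomes XII at 231184, IV at 555144 and XVI at 379132 were at 100% in galactose against 19.9%, 21.5% and 32.0% in glucose, each with a galactose site 3.58 to 8.98 kb away. The calls at XV 490333, IV 555144 and XVI 379132 were lost without either galactose sample, with a limma adjusted p from 0.0515 to 0.0879. At I 24848, XVI 122161, VI 63897, VIII 171539 and XI 646080 only glucose had a listed site, and galactose had one 2.86 to 5.20 kb away. There too values were identical within the groups of 2. The site on chromosome IV at 463166 did not pass, at 75.3% and 100% in galactose and 29.7% in glucose (adjusted p = 0.0680 by limma). It passed without E (0.0247) and without G (0.0453).

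Sites used in both media sent out shorter forks in galactose. Over the 250 sites listed in E, G and F, the mean run of a site's own forks had a median of 23.5 kb and 21.6 kb in galactose and 30.6 kb in glucose. Both galactose samples lay below glucose at 200 of these sites (80%) and above it at 32 (12.8%). For 228 sites listed in all 5 samples, grouped into quartiles of 57 by their wild-type probability, the glucose run was 1.29, 1.33, 1.43 and 1.36 times the galactose mean from the weakest quartile to the strongest. The ratio was above 1 in weak and strong origins alike, with no steady order.

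Travel distance was then compared place by place, as the mean distance travelled by the forks that copied each of 2389 windows of 5 kb. limma called 656 windows lower in galactose than in glucose (27.5%) and 8 higher (0.335%), for 27.8% in all, with 956 at an unadjusted p under 0.05. Glucose lay above both galactose samples in 1895 windows (79.3%) and below both in 242 (10.1%). The median difference was -5.92 kb over all windows and -18.8 kb over the 656. In those 656 the mean travel was 15.4 kb and 14.1 kb in galactose, 36.7 kb in glucose, and 34.9 kb and 32.5 kb in wild type, and 634 lay below all 3 other samples in both galactose samples. Fewer windows were called when E or G was left out, but the spread then comes from wild type A and B alone. Over the windows A and B differed by a mean of 4.36 kb, and E and G by 2.54 kb. Counts from such fits therefore do not show whether the difference needs both galactose samples. Windows next to each other are copied by the same forks, so they are not independent.

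Replicates shared their travel map. Pearson's r over the 2389 windows was 0.907 for galactose E with G and 0.905 for wild type A with B. It was 0.799 and 0.765 between glucose and wild type, and 0.581 to 0.628 between galactose and the other 3. Points on 1 chromosome share forks, so these are descriptions.

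Places that forks reached late in their run in wild type differed most. In the quartile of windows with the shortest wild-type travel, the mean was 8.21 ± 0.673 kb in galactose (SD, n = 2) and 11.5 kb in glucose. In the second quartile it was 13.1 ± 0.850 kb and 19.2 kb, in the third 17.3 ± 0.961 kb and 26.4 kb, and in the longest 22.5 ± 1.30 kb and 39.8 kb. The ratio of glucose to galactose was 1.40, 1.47, 1.53 and 1.77 in this order. The share of windows called lower was 7.53%, 16.6%, 30.5% and 55.3%. A fall in kb has more room where travel is long, which is why ratios are given. The ratios have a limit too. Wild-type travel, which set the quartiles, went with glucose at an r of 0.799 and 0.765 and with galactose at 0.584 to 0.606. A weaker correlation alone flattens galactose across the quartiles and raises the ratio toward the longest. Whether such places differ beyond that was not tested.

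**Figure D5:**
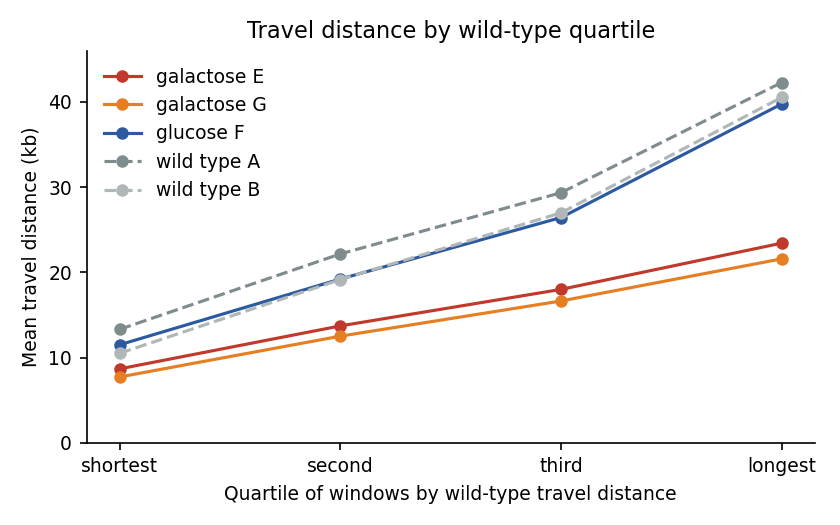
Mean travel distance (y axis, kb) of the forks that copied 5 kb windows, by quartile of wild-type travel (x axis, shortest to longest), 1 line per sample. Galactose E and G go from 8.68 and 7.73 kb to 23.4 and 21.6 kb, and glucose goes from 11.5 to 39.8 kb alongside wild type, whose own values set the quartiles.

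Every chromosome took part. Mean travel, the share copied past 30 kb and the mean run were lower in both galactose samples than in each of the other 3 on 16 of 16 chromosomes. The ratio of glucose to galactose travel went from 1.35 on chromosome XV to 1.98 on chromosome VI. Median spacing was less uniform: both galactose samples lay below glucose on 13 of 16 and below all 3 others on 9. On chromosome XIV the galactose medians, 36.8 kb and 36.6 kb, lay above the 35.8 kb of glucose, while travel there was 13.5 kb and 12.0 kb against 24.3 kb.

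Chromosome ends, which are copied by 1 outgoing fork where no site lies near them, had long travel in every sample. In the outermost 30 kb the mean was 24.2 kb and 22.8 kb in galactose, 46.2 kb in glucose, and 43.6 kb and 43.4 kb in wild type. Elsewhere it was 15.2 kb and 13.9 kb, 22.3 kb, and 25.3 kb and 22.6 kb. Of 199 windows within 30 kb of an end, limma called 132 lower, compared with 656 of all 2389 windows (27.5%). A fall in kb has more room at ends, where travel is long.

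Adjacent windows called lower formed 95 regions on all 16 chromosomes, 3274 kb in all, of which 26 reached within 30 kb of an end. In 5 of the 10 with the largest fall, the wild-type mean lay nearer to glucose than to the galactose mean. Chromosome XII from 1 to 85000 was copied after 10.3 kb and 9.93 kb of travel in galactose, 45.4 kb in glucose, and 48.8 kb and 45.2 kb in wild type. Glucose had 1 site there, at 31646 with a probability of 0.405, while E and G each had 3, summing to 2.70 and 2.81. Chromosome II from 1 to 180000, the longest region, stood at 10.4 kb and 11.1 kb in galactose, 40.8 kb in glucose, and 39.2 kb and 36.3 kb in wild type. The summed probability of its sites was 4.87 and 4.86 in galactose, compared with 1.41 in glucose and 1.82 and 2.01 in wild type.

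Chromosome XI from 1 to 30000 stood at 7.48 kb and 9.21 kb in galactose, 44.9 kb in glucose, and 40.6 kb and 34.9 kb in wild type. A site at 16190 had a probability of 1 in E, one at 16210 had 0.964 in G, and glucose had one of 0.133 at 14505. Chromosome XIV from 1 to 75000 stood at 13.1 kb and 10.4 kb in galactose, 49.2 kb in glucose, and 36.6 kb and 37.9 kb in wild type. Chromosome IV from 1095001 to 1140000, inside 1 of the long glucose intervals above, stood at 21.4 kb and 19.9 kb, 54.4 kb, and 54.0 kb and 39.0 kb.

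In the other 5, the wild-type mean lay nearer to the galactose mean than to glucose, on chromosome V by little: there it was 34.3 kb, against 13.1 kb and 57.2 kb. Chromosome VII from 545001 to 610000 was copied after 26.2 kb and 24.8 kb in galactose, 63.2 kb in glucose, and 33.6 kb and 30.6 kb in wild type, and glucose had no site inside. Chromosome V from 515001 to 575000 stood at 16.7 kb and 9.44 kb in galactose, 57.2 kb in glucose, and 33.2 kb and 35.5 kb in wild type. Chromosome VII from 990001 to 1090000 stood at 19.6 kb and 18.9 kb, 49.0 kb, and 28.5 kb and 27.9 kb. All samples had 2 sites there, within 2 kb of each other across samples, which summed to 1.79 and 1.83 in galactose, against 0.873 in glucose and 1.52 and 1.47 in wild type. Chromosome XVI from 855001 to 920000 stood at 24.4 kb and 14.9 kb, 54.9 kb, and 32.3 kb and 25.2 kb. Its last stretch, from 935001 to 948062, stood at 55.4 kb and 28.7 kb, 88.6 kb, and 52.0 kb and 49.6 kb, so galactose E lay above wild type there. Glucose against wild type was not tested in these regions.

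The limma adjusted p of the windows in these 10 regions ran from 0.00238 to 0.0492. The calls on chromosomes V, XI, XII, XIV and VII (545001) held whichever 1 galactose or wild-type sample was left out. Those on chromosomes II and VII (990001) were lost without galactose G (0.0571 each), that on chromosome IV without E or G (0.0871 and 0.109), and that at XVI 855001 without G (0.0587) or either wild-type sample (0.0628). The call at XVI 935001 was lost without either wild-type sample (0.177) and without chromosome IV (0.0516). Leaving out wild type A, B or both gives the same result, with a spread from galactose E and G alone, so these are not separate checks. On a log2(kb + 1) scale the limma calls at XVI 935001 (0.130) and XVI 855001 (0.0637) were lost.

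Travel was longer in galactose in 4 regions of 10 kb each. On chromosome IV from 460001 to 470000 it was 22.1 kb and 27.4 kb in galactose, 10.7 kb in glucose, and 6.35 kb and 5.91 kb in wild type. That region holds a site used in 0.699 of copies in glucose, 0.247 in E and none in G. On chromosome XV from 485001 to 495000 the values were 14.4 kb in each galactose sample, 4.31 kb in glucose, and 11.7 kb and 12.0 kb in wild type. On chromosome XII from 195001 to 205000 they were 36.3 kb and 34.1 kb, 24.9 kb, and 38.2 kb and 39.0 kb, and on chromosome IV from 905001 to 915000 they were 18.0 kb and 19.7 kb, 8.89 kb, and 29.0 kb and 29.6 kb. In the last 2, galactose lay below wild type. Limma adjusted p over the 4 ran from 0.0266 to 0.0428, and on a log2(kb + 1) scale the call on chromosome XII was lost (0.0770). Without either galactose sample all 4 calls were lost (0.0766 to 0.224), and without either wild-type sample those on chromosomes IV and XII were lost (0.0525 to 0.104).

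The longest single forks show the difference at its extreme. Among forks of probability at least 0.1, the 5 longest in glucose ran 129 to 171 kb, and all 5 reached a chromosome end. The longest left chromosome XVI 777134 with a probability of 0.141 and passed 3 sites on the way to the right end at 948061. Others left XII 138773 for the left end (139 kb, probability 0.131), V 439354 for the right end (138 kb, 0.203) and X 612729 for the right end (133 kb, 0.139). The stretch crossed by the X fork held 1 glucose site and 3 sites in each galactose sample, which summed to 0.842 in glucose and to 2.85 and 3 in galactose.

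In galactose the 5 longest ran 82.3 to 129 kb in E and 82.4 to 94.5 kb in G. The longest in E left XVI 818919 for the right end with a probability of 0.113. In glucose the fork that left nearly the same place, 819437, covered the same stretch in 0.387 of copies. The longest in G left XIII 94545 for the left end, 94.5 kb with a probability of 0.234, and E had the matching fork from XIII 94003, 94.0 kb and 0.224. The fork that left chromosome VII 999958 in E and 999301 in G for the right end ran 91.0 kb (0.196) and 91.6 kb (0.171). The other 2 in E, on chromosomes VII and IV, and the other 3 in G, on chromosomes VII, II and IX, ran 82.3 to 89.5 kb.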

How the data were processed

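Per the labels, Okazaki fragments were sequenced and fitted to replication profiles. The authors deposited fork segments with positions, times in minutes and a probability, a fraction from 0 to 1. How reads were aligned and profiles fitted, and on which genome build, is not given in the sources used here. The deposited files hold no read counts, so depth and counting error are unknown. A table of mean times was not used.

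Segments of 1 direction were chained where an end met the next start (same base, within 0.02 min), with no ambiguous join. A site is a rightward and a leftward fork that start within 2 bp and 0.05 min of each other. Forks and bases were weighted by probability. The intervals that span the uncovered stretch of chromosome XII were left out of spacing. Values per sample were compared by two-sided exact permutation tests of group means. For windows (at least 50% covered) and for joined sites the test was limma (version 3.58.1, R 4.3.3; lmFit, eBayes, 3 groups, 5 samples, 2 residual degrees of freedom, two-sided, Benjamini-Hochberg adjustment over all windows or all sites, threshold 0.05). With 1 glucose sample, its spread is taken to be that of the other groups. Fork tracing and limma were tested on simulated data. Python 3.11.15 with numpy 2.4.6, pandas 2.3.3 and matplotlib 3.10.9 did the rest.

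The members, lists and tests were chosen with earlier results of these data known. The rule names the 10 regions of called windows and the 10 sites that differed most each way, the 5 longest glucose intervals and the 5 longest forks per sample. A named site has both galactose samples above or both below glucose, with the gap to the nearer one larger than the gap between them. A region's adjusted p under an alternative is that of its middle window by rank. Alternatives changed the summary over forks, the distance, the minimum probability, the join distance, the window, the scale and the samples or chromosomes used.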

Additional observations from a re-analysis of the deposited data

How the results depend on the processing

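No result turned its direction under the alternatives run. Galactose minus glucose was -9.57 kb in mean run, -7.10 kb by the median, -7.81 kb without forks that reach a chromosome end or the gap, and -23.2 kb by the 90th percentile, a summary chosen after seeing the data. Leaving out 1 galactose sample gave -10.6 to -8.58 kb. The difference in genome copied past 30 kb was -17.3 percentage points, -12.8 past 40 kb, and -18.5 to -16.0 without 1 galactose sample. Median spacing differed by -4.53 kb, by -9.45 and -13.3 kb at probabilities of at least 0.3 and 0.5, by -19.4 kb per initiation, and by -5.74 to -3.31 kb without 1 galactose sample. Passive share over joined sites differed by -19.3 percentage points, by -13.7 over own sites, by -15.3 over sites listed in all 5, and by -22.1 to -16.5 without 1 galactose sample. The 664 called windows of 5 kb were 337 of 1195 at 10 kb, where there are fewer windows, and 113 to 704 without 1 galactose or wild-type sample. Without galactose E, 170 of the 180 calls were among the 664, and without G 106 of 113. With galactose and glucose alone, 704 were called and 499 shared. For sites, 123 were called, and 85 to 109 without 1 sample, of which 61 to 73 were among the 123. Joined within 1000 bp and 5000 bp, 99 and 97 sites were lower and 32 and 13 higher, against 103 and 20, and 11 of the 20 named sites had a matching position at 5000 bp. On the log2(kb + 1) scale 615 windows were lower and 15 higher, against 656 and 8, and 3 named regions lost their call. Of the 19 named sites with a call, 7 lost it without galactose E and 7 without G, and 3 without either wild-type sample. Without 1 galactose sample the spread comes from wild type alone, and without 1 wild-type sample it comes from galactose alone. Counts under these settings therefore mix a change of samples with a change of spread. The cause of these losses was not tested. Leaving out chromosome IV or XII, dropping segments under 0.05 and joining paths within 500 bp moved no difference by more than the spread between replicates. No paired analysis was possible because the labels give the galactose and glucose samples letters and no shared replicate numbers. Glucose has 1 sample, so its own spread is unknown, and so is read depth.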
